A study of Mus musculus with 42 samples.

Results

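Skeletal muscle of diabetic mice treated with the yangyinyiqi part of a herbal compound was compared with skeletal muscle of untreated mice of the same disease model, across all genes of a single-colour Agilent mouse array. The comparison holds 6 arrays, 3 yangyinyiqi and 3 macroangiopathy, each from 1 mouse, out of 42 arrays of the whole series, and it was defined by the sample titles alone. The other arrays come from aorta or from 5 further groups, which were healthy C57 mice, diabetic KK/Ay mice, and model mice given SHENQI compound, its huoxue part or rosiglitazone. Both groups compared here were male KK/Ay mice, a strain that carries the yellow allele of agouti and becomes obese and diabetic, aged 18 to 20 weeks at the start. The macroangiopathy model was made in both by 8 weeks of high-fat feeding with L-NAME, which blocks nitric oxide synthase, at 0.2 mg/ml in the drinking water, and gavage for 8 weeks followed. The yangyinyiqi group received an extract of ginseng, Astragalus, rehmannia root, trichosanthin, hawthorn and Huai yam, and the macroangiopathy group received saline. KK/Ay diabetes is obesity-linked, so the model stands for a type 2 form of the disease. The labels name the tissue only as skeletal muscle and do not say which muscle was taken.

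Skeletal muscle is built from slow fibres, which are oxidative and resist fatigue, and from fast fibres, which are more glycolytic, and each kind uses its own set of myosin, troponin and calcium pump genes. Muscle takes up most of the glucose cleared after a meal, and it becomes resistant to insulin in type 2 diabetes. Its transcripts also follow the circadian clock, glucocorticoids, interferon and the use of the muscle, so these groups of genes were counted beside those of glucose and lipid metabolism.

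Muscle genes were high on all 6 arrays, as the tissue label implies. Ckm, the muscle creatine kinase, lay between 15.84 and 16.50 on the 6 skeletal muscle arrays and between 7.44 and 9.98 on the 6 aorta arrays of the same groups, as log2 normalized intensity, the scale of all levels given here. The nonagouti gene (a), which the yellow allele drives in most tissues, lay between 8.87 and 9.95 on the 6 arrays and between 5.43 and 5.57 in healthy C57 muscle. The number of probes well above background was 23046 to 25146 on an array, 0 spots were saturated, and the correlation between pairs of arrays over the genes tested lay between 0.982 and 0.994. The number of arrays, 3 per group, limits the precision.

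Some arrays stood apart before any comparison. Keratins of the skin epidermis were high on 3 arrays, yangyinyiqi 1 and macroangiopathy 1 and 2. Krt5, a keratin of basal epidermal cells, had levels of 12.17, 6.65 and 6.51 on the yangyinyiqi arrays and 11.38, 13.36 and 6.26 on the macroangiopathy arrays. Krt10, a keratin of the upper epidermis, had 11.39, 7.42 and 7.49 against 10.19, 13.26 and 7.37. All 11 skin keratinocyte markers on the array were well above background on at least 1 of the 6 arrays, and their summed linear level ranged from 1572.57 to 18645.4 in the yangyinyiqi group and from 1346.31 to 62205.6 in the macroangiopathy group. The first principal component held 48.3% of the variance among the 6 arrays, 5 keratinocyte markers were among its first 20 genes, and 0 of its first 100 genes had an unadjusted P below 0.05 between the groups in limma. Of the 7 keratinocyte markers that could be tested 0 were called, with a median difference of -1.24. In 53 genes macroangiopathy 2 lay more than 1 log2 unit above the 5 other arrays, against 1 to 11 genes for each of the others. On macroangiopathy 3, Ctsh, which encodes the lysosomal protease cathepsin H, was at 10.67 against 8.37 to 8.59 on the 5 other arrays. The B cell gene Ighm, the heavy chain of IgM, was at 14.18 on that array and between 10.52 and 12.53 on the others. On macroangiopathy 1, the clock gene Arntl was at 9.16 against 7.97 to 8.42. In bulk muscle, more cells of a type and more RNA per cell cannot be told apart. Macroangiopathy 1 and 2 were hybridized on 1 slide, and macroangiopathy 3 and all 3 yangyinyiqi arrays on another, so slide and group are partly confounded, and the slide-blocked value compares the yangyinyiqi arrays with macroangiopathy 3 alone.

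**Figure D1:**
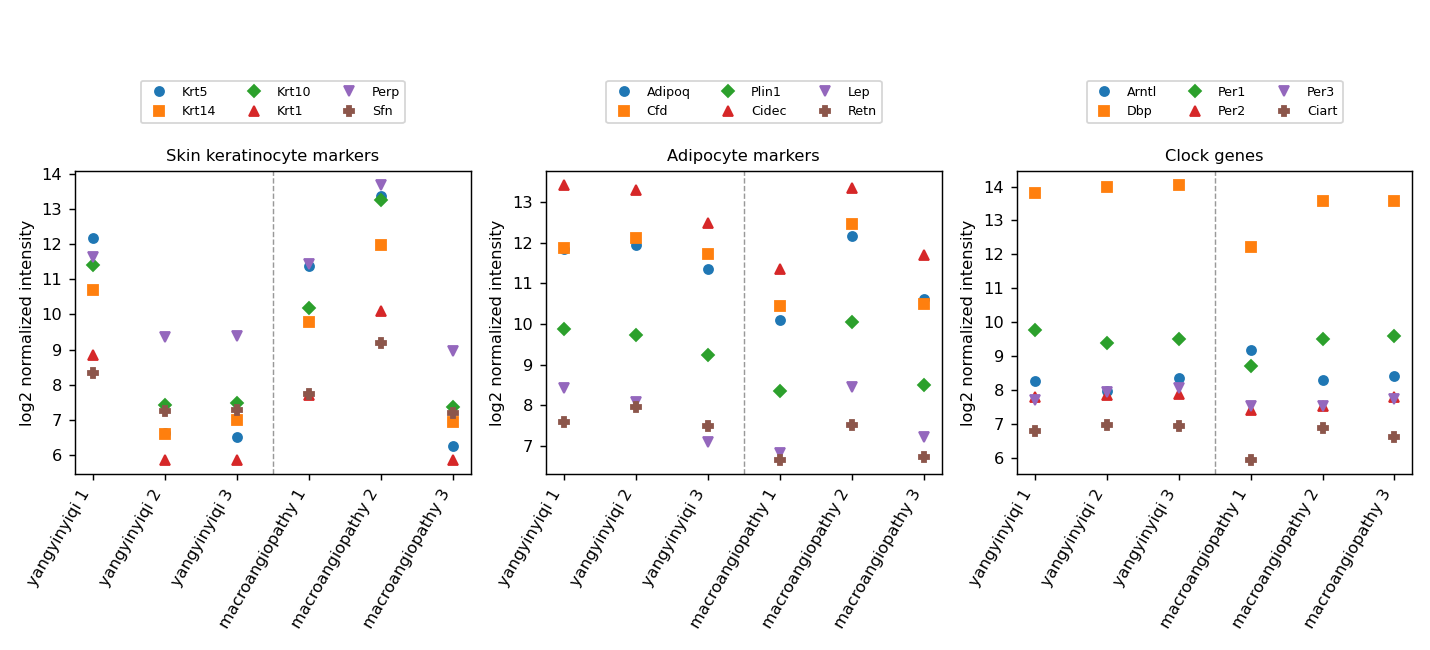
Levels of skin keratinocyte markers (left), adipocyte markers (middle) and clock genes (right) on each of the 6 skeletal muscle arrays. The vertical axes give log2 normalized intensity, each symbol is 1 gene, and the dashed line separates the yangyinyiqi from the macroangiopathy arrays. The keratins are high on yangyinyiqi 1 and macroangiopathy 1 and 2, adipocyte genes are low on macroangiopathy 1 and 3, and Arntl is highest and Dbp lowest on macroangiopathy 1.

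The groups differed little. Of 13570 genes tested in limma, 517 (3.81%) had an unadjusted P value below 0.05, which is the threshold named in the study's methods, and about 5% of unchanged genes pass it by chance. Of these, 310 (2.28%) were higher and 207 (1.53%) lower in the yangyinyiqi group. After Benjamini-Hochberg adjustment 0 genes (0%) passed, and the smallest adjusted p was 0.711, that of Tnnc1. The adjusted p was 0.991 in limma for every other gene whose change is named below as called. A gene is called higher or lower here when its unadjusted P value was below 0.05, and each such call stands beside that background. The median standard error of a log2 fold change was 0.098, the median size of the change over all genes was 0.07, and the 95th percentile was 0.27. The called genes had a median size of 0.27, and 31 of them exceeded 0.5, 16 higher and 15 lower. The arrays of the groups did not overlap in 1182 genes (8.71%), 717 higher and 465 lower, and 431 of these were called. When the processed signal of Agilent was used instead, scaled on each array to its 75th percentile, 170 genes were called higher and 324 lower, so which direction holds more calls depends on the scaling. Fitted with slide as a fixed block, 468 genes (3.45%) were called, 114 of them shared with the 517, and 5 passed adjustment. Without the arrays yangyinyiqi 1 and macroangiopathy 2, which carry the most keratinocyte signal, 831 genes were called, 211 of them shared with the 517, and 0 passed adjustment.

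**Figure D2:**
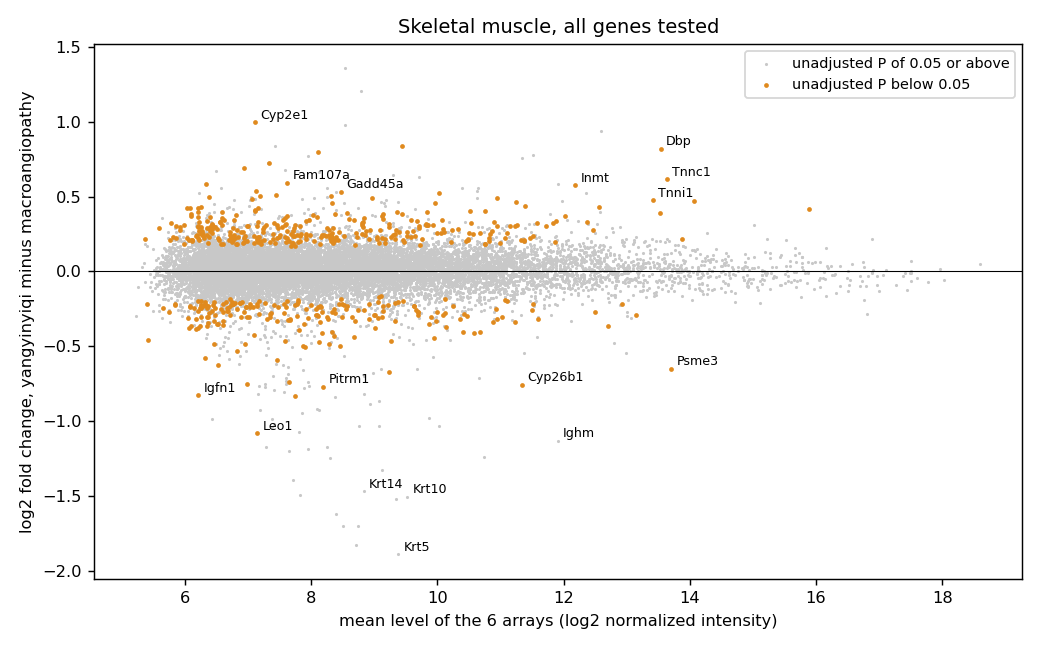
Log2 fold change, yangyinyiqi minus macroangiopathy (vertical axis), against the mean level of the 6 arrays in log2 normalized intensity (horizontal axis) for the 13570 genes tested in skeletal muscle. Each point is 1 gene, the 517 with an unadjusted P value below 0.05 are orange, and the lowest points, the keratins among them, are grey and were not called.

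The largest increases among called genes with no overlap between arrays and the same direction in each fit that left out 1 array were those of Cyp2e1, Dbp, Tnnc1, Fam107a, Inmt, Atp8a2, Gadd45a, C7, Klk1b26, Fkbp5, Smox, Dkk2, Tnni1, Ier5 and Acsl3, from 0.99 for Cyp2e1 to 0.46 for Acsl3 as log2 fold changes. The largest decreases were those of Leo1, Igfn1, Pitrm1, Cyp26b1, Scd3, Iigp1, Psme3, Gbp4, Prnd, Grin2d, Tfap2e, Esm1, Kifc5b, Gm11961 and Smad7, from -1.08 for Leo1 to -0.47 for Smad7. Of these 30 genes, 14 had a P value below 0.05 with slide as a fixed block and 18 in a fit of all 21 skeletal muscle arrays. The 9 genes below it in both were Cyp2e1, Tnnc1, Fam107a, Dkk2, Acsl3, Leo1, Igfn1, Pitrm1 and Grin2d. Over all 13570 genes these fits called 468 and 155, of which 114 and 117 were among the 517. Both fits reuse the arrays on which the 30 genes were chosen, which favours such counts. The 9 genes were therefore not tested independently.

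**Figure D3:**
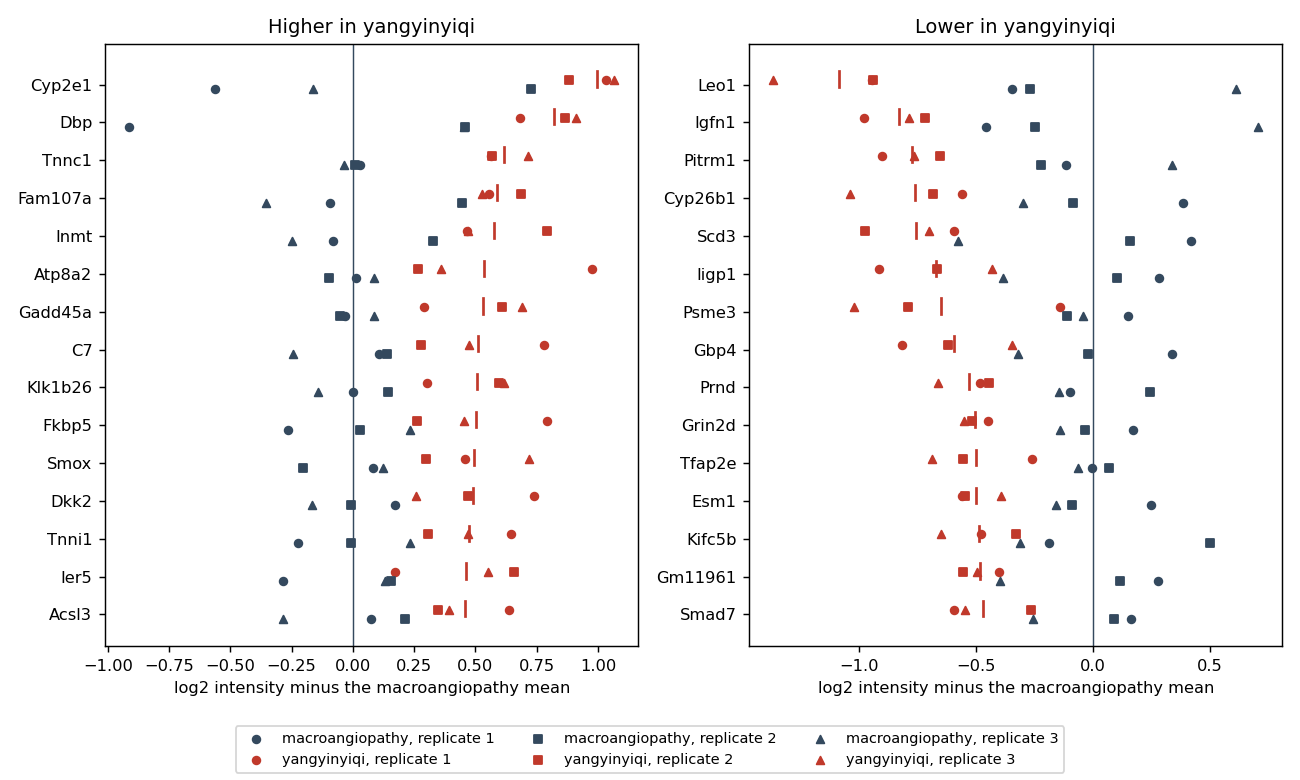
Level of the 15 genes with the largest increases and the 15 with the largest decreases on each skeletal muscle array, as log2 normalized intensity minus the mean of the 3 macroangiopathy arrays. Each point is 1 array, red bars are yangyinyiqi means, and the genes were chosen for having no overlap, so the separation itself is no finding. Among the decreases, Leo1 and Igfn1 have 1 macroangiopathy array, replicate 3, far above the other macroangiopathy arrays.

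Among 9 slow fibre contractile genes 3 were called higher in the yangyinyiqi group and 0 lower, led by Tnnc1, which encodes the troponin C of slow and cardiac muscle. Tnnc1 (Entrez gene 21924, measured by a probe at 32023360 to 32023776 on chromosome 14, mm9) had levels of 13.89, 13.90 and 14.05 on the yangyinyiqi arrays and 13.36, 13.34 and 13.29 on the macroangiopathy arrays. All yangyinyiqi arrays lay above all macroangiopathy arrays, with little spread in either group (SD 0.085 and 0.035). Its log2 fold change was 0.62 (standard error 0.080, 95% interval from 0.43 to 0.80), a fold of 1.53, with an adjusted p = 0.711 in limma. With slide as a fixed block the change was 0.65, and it was called in that fit too. Tnni1, the slow troponin I, had levels of 13.82, 13.48 and 13.64 against 12.95, 13.16 and 13.40, a log2 fold change of 0.47 (standard error 0.135). The groups lay 0.08 apart at their nearest arrays, and the slide-blocked change was 0.24, which was not called. Both probes of Tnni1 gave an increase, 0.44 and 0.51. Atp2a2, the calcium pump of slow fibres, was called higher by 0.23 (standard error 0.100), and its slide-blocked change, 0.12, was not called.

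The 3 called of 9 stand against 2.28% of all genes called higher. All 9 changes were positive, with a median of 0.21 against 0.014 over all genes. The most abundant of them did not pass the test. Myh7, the slow myosin heavy chain, had levels of 17.11, 16.94 and 16.93 against 16.79, 16.64 and 16.91, a difference of 0.21 (standard error 0.097). Myl2, a slow myosin light chain, differed by 0.31 (standard error 0.152) and Tnnt1, the slow troponin T, by 0.13 (standard error 0.143). With slide as a fixed block the median of the list was 0.08, with 5 of 9 changes positive and 2 called. Without the arrays yangyinyiqi 1 and macroangiopathy 1 and 2 it was 0.03, over 2 arrays against 1. Of 13 fast fibre contractile genes, 0 were called in limma, with a median of -0.03, and the largest differences were -0.15 for Myh1 and 0.11 for Pvalb, a calcium buffer of fast fibres. The probes of Myh1 disagreed, at -0.39 and 0.08, so its direction rests on the probe. The muscle fibre markers, such as Acta1 and Ckm, gave 0 of 10 called in limma and a median of -0.05.

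Among 15 clock repressor and output genes 3, Dbp, Per2 and Per3, were called higher in the yangyinyiqi group and 0 lower, and the array macroangiopathy 1 lay apart in several of them. The muscle clock is driven by the activators Clock and Arntl, which switch on the Period genes, and Dbp, a transcription factor under direct clock control, is among its strongest outputs. Dbp had levels of 13.811, 13.997 and 14.042 on the yangyinyiqi arrays and 12.22, 13.59 and 13.59 on the macroangiopathy arrays. There was no overlap, and macroangiopathy 1 was 1.37 log2 units below the other macroangiopathy arrays. Its log2 fold change was 0.82 (standard error 0.33), and 0.36 with slide as a fixed block, which was not called. Per3 had levels of 7.71, 7.95 and 8.05 against 7.51, 7.52 and 7.74, a change of 0.31 (standard error 0.114). Per2 was higher by 0.27 (standard error 0.111), and in both Period genes 1 array of each group overlapped the other group. The 3 called of 15 stand against 2.28% of all genes called higher. The median of the 15 genes was 0.19, and 11 changes were positive. With slide as a fixed block limma called 0 of 15 at an unadjusted P below 0.05, with Per3 at 0.16 and Per2 at 0.04, and the median was 0.02. Without macroangiopathy 1 the median was 0.07 and 1 gene was called. Arntl had levels of 8.25, 7.97 and 8.34 against 9.16, 8.30 and 8.42, a difference of -0.44 (standard error 0.217) that was not called. No time of sampling for single mice is given in the sources used here, and its part in these values was not tested.

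Per1, a Period gene that the study discusses for the yangyinyiqi group without naming a tissue, was not called in skeletal muscle. It had levels of 9.77, 9.37 and 9.49 against 8.71, 9.49 and 9.60, so that 2 macroangiopathy arrays lay inside the range of the yangyinyiqi arrays, and the difference of 0.27 (95% interval from -0.24 to 0.79) rested on macroangiopathy 1. It was -0.06 with slide as a fixed block and -0.0043 without that array. The 250 bases before the start of Per1 hold 1 copy of the E-box, CACGTG, the motif that Clock and Arntl bind, and are shown for that motif. In the RefSeq sequence of GRCm38.p6 they lie at chr11:69098699-69098948 on the plus strand, printed 5′ to 3′ along the gene with the E-box in capitals.
Per1 promoter: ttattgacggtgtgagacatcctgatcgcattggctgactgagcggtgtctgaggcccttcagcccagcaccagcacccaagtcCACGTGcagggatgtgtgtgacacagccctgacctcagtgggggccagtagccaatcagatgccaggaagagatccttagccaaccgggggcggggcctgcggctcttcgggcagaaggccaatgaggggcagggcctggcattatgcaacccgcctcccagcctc
The E-box was searched on both strands, which are the same for this palindrome. Of 32851 promoters of this length 1978 (6.02%) held it, as did 5 of the 13 promoters found for the clock repressor and output genes, those of Bhlhe41, Ciart, Cry1, Per1 and Tef. A match is a description of letters and not of a bound site.

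Of 17 genes that respond to glucocorticoids 2 were called, both higher. Of 20 genes of muscle atrophy 1 was called higher and 2 lower. These counts stand against 2.28% of all genes called higher and 1.53% called lower. Fkbp5, a chaperone of the glucocorticoid receptor that the receptor itself induces, had levels of 7.73, 7.20 and 7.39 against 6.67, 6.96 and 7.17. The groups lay 0.03 apart at their nearest arrays, and the log2 fold change was 0.50 (standard error 0.165). Tsc22d3, the glucocorticoid-induced leucine zipper, had levels of 12.05, 12.27 and 12.30 against 11.73, 11.76 and 12.02, a change of 0.37 (standard error 0.110). Over the 17 genes 15 changes were positive, with a median of 0.16. With slide as a fixed block limma called 0 of 17 at an unadjusted P below 0.05, with Fkbp5 at 0.27 and Tsc22d3 at 0.18, and the median was 0.04. Without macroangiopathy 1 the median was also 0.04, and 1 gene was called.

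Gadd45a, a stress-induced gene that is raised in denervated and fasted muscle, had levels of 8.50, 8.82 and 8.90 on the yangyinyiqi arrays and 8.18, 8.16 and 8.29 on the macroangiopathy arrays. The groups lay 0.21 apart, with a log2 fold change of 0.53 (standard error 0.115) and 0.45 with slide as a fixed block, called in both fits. The ubiquitin ligases that mark muscle protein for breakdown lay the other way. Fbxo32 (atrogin-1) had levels of 11.30, 11.43 and 11.60 against 11.76, 11.61 and 11.91, a change of -0.32 (standard error 0.111). Trim63 (MuRF1) changed by -0.22 (standard error 0.089). These 3 of 20 atrophy genes were called, and the median of the list was 0.02. Musk, the receptor kinase of the neuromuscular junction, was the only called gene of 10 developmental myosin and acetylcholine receptor genes, at 0.30 (standard error 0.102). In the slide-blocked fit Musk was at 0.12 and Trim63 at -0.18, neither called.

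The metabolic lists held 0 to 2 calls each, beside 3.81% of all genes called. In lists of 14 to 25 genes, 0 or 1 call lies near that share. Of 23 insulin signalling and glucose transport genes 0 were called in limma, with Grb14, an inhibitor of the insulin receptor, nearest at 0.27, and 0 of 14 glycogen genes and 0 of 22 tricarboxylic acid cycle genes were called. Of 80 oxidative phosphorylation subunits 0 were called, with a median of -0.02. Among 18 glycolysis genes, Pfkfb1, which makes the activator of phosphofructokinase, was called higher by 0.33 (standard error 0.141). Of 25 fatty acid oxidation genes, Acot2, a mitochondrial acyl-CoA thioesterase, was called lower without overlap, at a change of -0.38 (standard error 0.134). In fatty acid synthesis 2 of 14 were called. Thrsp, a lipogenic gene induced by thyroid hormone, was higher by 0.38 (standard error 0.114). Me1, which makes NADPH for fatty acid synthesis, was lower at -0.40 (standard error 0.100), but its probes disagreed, at -0.92 and 0.12, so its direction rests on the probe. In the list of PPAR nuclear receptors and coactivators 2 of 16 were called, Nrip1, a corepressor of oxidative genes, at 0.31 and Rxra, the partner receptor of PPARs, at -0.23. Tfb1m, which modifies mitochondrial ribosomal RNA, was the 1 call among 16 mitochondrial biogenesis and dynamics genes, at 0.20. The slide block left uncalled Pfkfb1 (0.23), Thrsp (0.28), Nrip1 (0.13), Rxra (-0.15) and Tfb1m (0.22). Cholesterol synthesis genes gave 0 of 21 called in limma. Among the leading genes, Acsl3, which activates long-chain fatty acids, was higher by 0.46, and Scd3, a stearoyl-CoA desaturase, changed by -0.76, or by -0.18 with slide as a fixed block, where it was not called.

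Adipocyte genes varied between mice more than between groups. Adipoq, which encodes adiponectin, had levels of 11.85, 11.95 and 11.36 on the yangyinyiqi arrays and 10.11, 12.17 and 10.62 on the macroangiopathy arrays. Cidec, a protein of fat droplets, had 13.42, 13.29 and 12.50 against 11.34, 13.35 and 11.70. In both genes macroangiopathy 1 and 3 were low, and macroangiopathy 2 lay above all yangyinyiqi arrays in Adipoq and among them in Cidec. Of 9 adipocyte markers 1 was called, Retn (resistin) at 0.72 (standard error 0.232), while all 9 differences were positive with a median of 0.72. The summed linear level of these markers ranged from 24071.8 to 39468.9 in the yangyinyiqi group and from 18665.3 to 42283.8 in the macroangiopathy group. Without macroangiopathy 2, the macroangiopathy array with the highest summed adipocyte level, limma called 8 of the 9 at an unadjusted P below 0.05. The median was then 1.19, and 579 genes were called over all. With slide as a fixed block 1 of the 9 was called, with a median of 1.03. The count of called adipocyte markers therefore depends on which arrays are used. With the summed adipocyte level as a covariate 910 genes were called, 351 of them shared with the 517.

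Cyp2e1, a cytochrome P450 of ethanol and fatty acid metabolism that is abundant in liver and also made in fat, gave the largest increase of the called genes. Cyp2e1 (Entrez gene 13106, probe at 147959585 to 147959644 on chromosome 7, mm9) had levels of 7.65, 7.50 and 7.68 against 6.05, 7.34 and 6.45. Macroangiopathy 2 was the nearest to the yangyinyiqi arrays, 0.16 below the lowest, and the probe was well above background on 2 of the 3 macroangiopathy arrays. The log2 fold change was 0.99 (standard error 0.28, 95% interval from 0.35 to 1.64). With the adipocyte level as a covariate it was 0.74 and with slide as a fixed block 1.16, called in both. The order of its macroangiopathy arrays was that of the adipocyte genes, highest on 2 and lowest on 1. In the yangyinyiqi group the order was the reverse. Cyp2e1 was highest on 3 and lowest on 2, while the summed adipocyte level was highest on 2 (39468.9) and lowest on 3 (24071.8). The liver markers Alb, Apoa1, Apoa2, Ttr, Fgb and Mup1 were well above background on 0 of the 6 arrays, and 3 of the 9 liver markers, Cyp2e1 among them, were on at least 1. Of these 2 could be tested, and both differences were positive, that of Serpina1d at 0.30 (standard error 0.361) and not called. The summed linear level of the 9 markers ranged from 1075.5 to 1476.47 in the yangyinyiqi group and from 835.974 to 1694.45 in the macroangiopathy group.

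Of 20 interferon response genes 3 were called lower in the yangyinyiqi group, and of 13 MHC and antigen presentation genes 2 were called lower, with 0 called higher in either list. Interferon-stimulated genes are switched on by STAT and IRF factors through a promoter element whose core is 2 copies of GAAA with any 2 bases between them. Rsad2 (viperin), an antiviral enzyme, and B2m, the light chain of MHC class I, are shown because both were called lower and hold that core in the 250 bases before their start. The promoters are those of RefSeq in GRCm38.p6, Rsad2 at chr12:26456453-26456702 on the minus strand and B2m at chr2:122147437-122147686 on the plus strand. They are printed 5′ to 3′ along each gene with the core, which was searched on both strands, in capitals.
Rsad2 promoter: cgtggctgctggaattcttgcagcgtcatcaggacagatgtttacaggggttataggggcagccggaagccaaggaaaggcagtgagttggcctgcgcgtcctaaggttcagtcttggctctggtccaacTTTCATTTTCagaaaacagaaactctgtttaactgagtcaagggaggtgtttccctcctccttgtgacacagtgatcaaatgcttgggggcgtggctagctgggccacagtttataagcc
B2m promoter: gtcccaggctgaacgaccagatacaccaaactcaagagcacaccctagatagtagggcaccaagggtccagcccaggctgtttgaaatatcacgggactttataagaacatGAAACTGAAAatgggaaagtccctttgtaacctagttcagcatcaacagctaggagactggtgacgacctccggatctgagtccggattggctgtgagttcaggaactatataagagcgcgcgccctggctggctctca
In Rsad2 the core lies on the opposite strand. Of 32851 promoters of this length 978 (2.98%) held the core, as did 7 of the 16 promoters found for the interferon response genes, those of Bst2, Ifit1, Ifit3, Isg15, Oas1a, Rsad2 and Stat2. Of these 7 genes only Rsad2 was called, and the called genes Irf7 and Oasl2 were not among them.

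Rsad2 had levels of 6.77, 6.96 and 6.79 on the yangyinyiqi arrays and 7.25, 7.11 and 7.08 on the macroangiopathy arrays, a log2 fold change of -0.31 (standard error 0.090). Irf7, the factor that amplifies the interferon response, had 6.61, 6.86 and 6.75 against 7.04, 7.09 and 6.99, a change of -0.30 (standard error 0.089). Neither gene overlapped between the groups. Oasl2, an oligoadenylate synthetase-like protein, was lower at -0.33 (standard error 0.140), with macroangiopathy 3 among the yangyinyiqi arrays. The 3 called of 20 stand against 1.53% of all genes called lower, and 18 of 20 changes were negative with a median of -0.22. With slide as a fixed block limma called 0 of 20 at an unadjusted P below 0.05, with a median of -0.05 and values of -0.24 for Rsad2, -0.25 for Irf7 and -0.07 for Oasl2. Without yangyinyiqi 1 and macroangiopathy 1 and 2 the median was 0.01, over 2 yangyinyiqi arrays against 1 macroangiopathy array.

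B2m had levels of 9.84, 10.09 and 9.94 against 10.44, 10.57 and 9.99, a change of -0.37 (standard error 0.151), and macroangiopathy 3 lay among the yangyinyiqi arrays. Ciita, the master activator of MHC class II genes, was lower at -0.33 (standard error 0.118). B2m and Ciita were the 2 called of 13 MHC genes, against 1.53% of all genes called lower. Under the slide block limma called 0 of 13 at an unadjusted P below 0.05, with a median of 0.03, B2m at -0.03 and Ciita at -0.33. Among the leading decreases, Iigp1 and Gbp4 encode GTPases that interferon gamma induces. Iigp1 had levels of 8.66, 8.91 and 9.15 against 9.86, 9.68 and 9.19, a change of -0.67 (standard error 0.185). Gbp4 had 6.94, 7.13 and 7.41 against 8.09, 7.73 and 7.43, a change of -0.59 (standard error 0.179). Macroangiopathy 3 lay 0.04 above the highest yangyinyiqi array in Iigp1 and 0.02 above it in Gbp4, and the slide-blocked changes, -0.28 and -0.27, were not called. Psme3, a proteasome activator subunit, had 13.89, 13.24 and 13.01 against 14.18, 13.92 and 13.99, a change of -0.65 (standard error 0.206), while 0 of 31 proteasome subunit genes were called in limma. Macrophage markers gave 0 of 12 called in limma, with a median of 0.03. Of the 5 T and B lymphocyte markers tested, Cd79b, a chain of the B cell receptor, was called lower at -0.31 (standard error 0.109). The slide-blocked changes of Psme3 (-0.61) and Cd79b (-0.15) were not called.

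**Figure D4:**
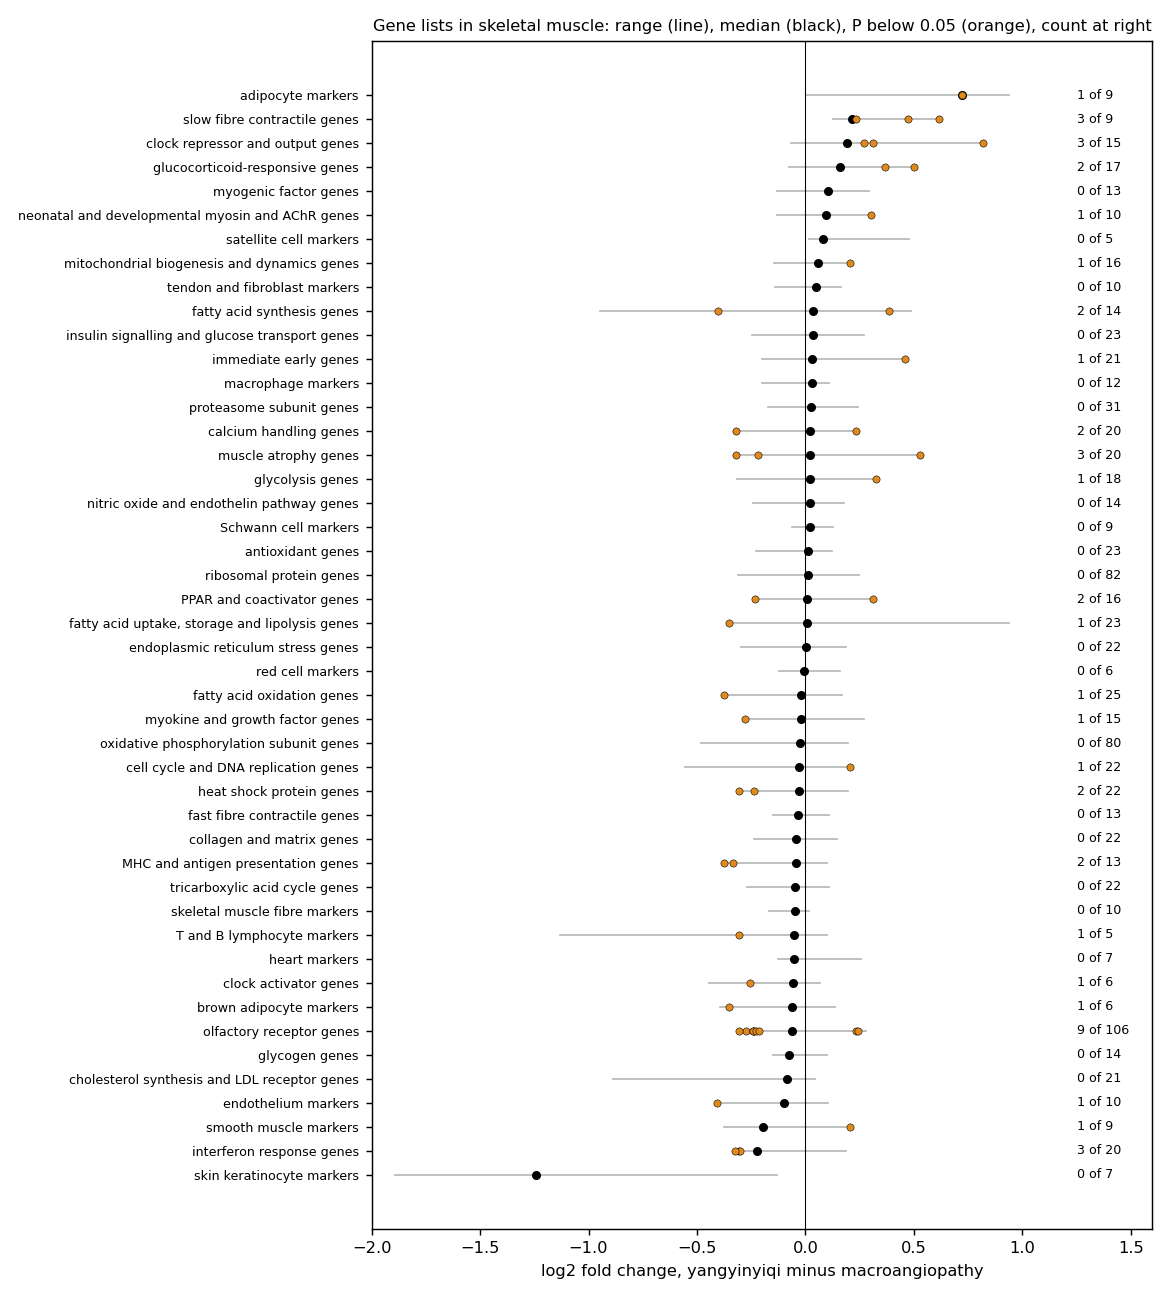
Log2 fold change, yangyinyiqi minus macroangiopathy, of the gene lists with at least 3 tested members in skeletal muscle. Lines run from the lowest to the highest member, black points are medians, orange points are members with an unadjusted P value below 0.05, and their number is at the right. The lines of the slow fibre genes, the adipocyte markers and the satellite cell markers lie above 0 over their whole length. That of the skin keratinocyte markers lies below 0, and the median of the interferon response genes is -0.22.

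The largest decrease of the called genes was that of Leo1, a subunit of the PAF1 complex that travels with RNA polymerase II. Leo1 (Entrez gene 235497, probe at 75314032 to 75314091 on chromosome 9, mm9) had levels of 6.75, 6.75 and 6.33 on the yangyinyiqi arrays and 7.35, 7.42 and 8.30 on the macroangiopathy arrays. Every macroangiopathy array lay above every yangyinyiqi array, and macroangiopathy 3 was the highest. The log2 fold change was -1.08 (standard error 0.25, 95% interval from -1.65 to -0.51), and -1.70 with slide as a fixed block, where its adjusted p = 0.0594 in limma. Pitrm1, a mitochondrial protease that degrades presequence peptides, had levels of 7.68, 7.93 and 7.82 against 8.47, 8.36 and 8.92. Its change was -0.77 (standard error 0.149), and the groups lay 0.43 apart. Igfn1, a muscle protein of the Z disc region, was well above background on 0 of the yangyinyiqi arrays. With its yangyinyiqi levels set no lower than the lowest clearly detected level of each array, it was 1.69-fold lower there. The 95% interval of its log2 fold change without that floor ran from -1.44 to -0.21, so the fold is no minimum. The macroangiopathy levels of Igfn1 were 6.17, 6.38 and 7.34, again highest on replicate 3.

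Cyp26b1, which breaks down retinoic acid, had levels of 11.16, 11.04 and 10.69 against 12.11, 11.64 and 11.42, a change of -0.76 (standard error 0.187). The groups lay 0.26 apart, and the slide-blocked change, -0.46, was not called. Smad7, an inhibitor of TGF-beta signalling, changed by -0.47 and Esm1, a proteoglycan of endothelial cells, by -0.50. Among 10 endothelium markers, Cldn5, a tight junction protein, was called lower at -0.41 (standard error 0.168), and the median of that list was -0.10. Nitric oxide and endothelin pathway genes gave 0 of 14 called in limma. Hspa1a and Hspa1b, near-identical copies of the inducible Hsp70 gene that their probes may not separate, were called lower at -0.31 and -0.24, and they were the 2 called of 22 heat shock genes. Of 20 calcium handling genes 2 were called, Atp2a2 higher and Ppp3r1, a calcineurin subunit, lower at -0.32. The Ppp3r1 value rests on 1 of 3 probes, at -0.75 and well above background on 0 yangyinyiqi arrays, while the other probes gave -0.10 and -0.11. Cidea, a fat droplet protein of brown fat, was the 1 called of 6 brown adipocyte markers, at -0.35, and Smtn, smoothelin, the 1 called of 9 smooth muscle markers, at 0.20. In the slide-blocked fit Smad7 (-0.21), Esm1 (-0.34), Cldn5 (-0.53), Ppp3r1 (-0.10), Cidea (-0.07) and Smtn (0.19) were not called.

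The 5 genes that passed adjustment with slide as a fixed block were Ctsh, Gmnn, H4c4, Igfn1 and Rpp14, all lower in the yangyinyiqi group. The changes were -2.18 for Ctsh, -2.01 for Gmnn, -1.90 for H4c4 and -1.44 for Rpp14. For Igfn1, not well above background on any yangyinyiqi array, no slide-blocked change is given. That fit sets the yangyinyiqi arrays against macroangiopathy 3, and each of these genes was highest on that array. Gmnn, an inhibitor of DNA replication licensing, was at 9.25 there against 7.10 to 7.48 on the others, and the histone gene H4c4 was at 11.50 against 9.23 to 9.66. Rpp14, a subunit of ribonuclease P, was at 10.22 against 8.73 to 9.08. In the fit without the slide block, the changes of Ctsh and H4c4 were -0.70 (standard error 0.527) and -0.46 (standard error 0.513), not called, and without macroangiopathy 3 they were 0.04 and 0.26. In aorta, 1 macroangiopathy array, replicate 1, was high in 4 of these 5 genes, Igfn1 being the exception. Ctsh was at 12.64, H4c4 at 12.80, Gmnn at 9.52 and Rpp14 at 9.43 on it, against at most 11.27, 9.83, 8.03 and 8.27 on the other 5 aorta arrays. Without yangyinyiqi 1 and macroangiopathy 1 and 2, which leaves macroangiopathy 3 alone in its group and assumes that it varies like the yangyinyiqi arrays, 676 genes were called, 124 of them shared with the 517, and 13 passed adjustment, among them these 5 and Leo1.

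Other leading genes had no list in common. Smox, which oxidizes spermine, had levels of 11.15, 10.99 and 11.41 against 10.77, 10.49 and 10.82, a change of 0.49 (standard error 0.132). Inmt, an amine N-methyltransferase, changed by 0.57 and Fam107a, an actin-associated protein raised by stress hormones, by 0.59. Dkk2, a secreted modulator of Wnt signalling, had 9.46, 9.19 and 8.98 against 8.90, 8.72 and 8.56, a change of 0.49 (standard error 0.139), and the groups lay 0.09 apart. C7, a terminal complement component, and Klk1b26, a glandular kallikrein whose family members are close in sequence, were higher by 0.51 (standard error 0.151) and 0.505 (standard error 0.115). Of the immediate early genes, which respond within minutes to contraction and stress, Ier5 was the 1 called of 21, at 0.46. Inhba, the activin A subunit, was the 1 called of 15 myokine genes, at -0.28, and Mcm8 the 1 called of 22 cell cycle genes, at 0.21. The slide-blocked values of Smox (0.37), Ier5 (0.33), Inhba (-0.30) and Mcm8 (0.14) were not called.

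Of 33 lists of pathways and gene families, 13 held 0 called genes in limma, and of 14 lists of cell type markers 8 did, the skin keratinocyte markers among them. Over all genes 3.81% were called, and the count of each list stands beside that share. The lists with 0 calls included myogenic factors (13 genes tested), collagen and matrix genes (22), endoplasmic reticulum stress genes (22), antioxidant genes (23) and ribosomal proteins (82), and their medians lay between -0.04 and 0.10. Of 106 olfactory receptor genes above the filter, out of 917 on the array, 9 were called, 2 higher and 7 lower. Over all genes 2.28% were called higher and 1.53% lower. The changes over the olfactory list ran from -0.31 to 0.28. After adjustment 0 of the 47 lists held a gene that passed in limma.

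Across the 7 muscle groups the leading genes followed no single order. Tnnc1 lay at 11.93 to 12.70 in healthy muscle, 13.76 to 14.20 in diabetic muscle and 13.50 to 13.86 after SHENQI compound, with the yangyinyiqi arrays inside the diabetic range. Huoxue and rosiglitazone muscle had 12.76 to 13.60 and 12.99 to 13.35, ranges that meet that of the macroangiopathy arrays. Tnni1 did not share that order, since it was highest in huoxue (13.62 to 14.22) and rosiglitazone muscle (13.91 to 13.99). Cyp2e1 was highest in healthy muscle, at 9.61 to 9.87, and between 6.83 and 7.15 in diabetic muscle. Leo1 was at 6.63 to 6.97 in diabetic muscle, which overlaps the yangyinyiqi range, and at 5.21 to 5.48 after huoxue. Pitrm1 showed a like order, with 9.55 to 9.94 in healthy, 7.70 to 7.76 in diabetic and 6.41 to 6.72 in huoxue muscle. Gadd45a was highest in healthy muscle, at 9.15 to 10.78. Most of these arrays lay on other slides, so slide and group cannot be told apart in these levels, and the other groups were not tested here.

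**Figure D5:**
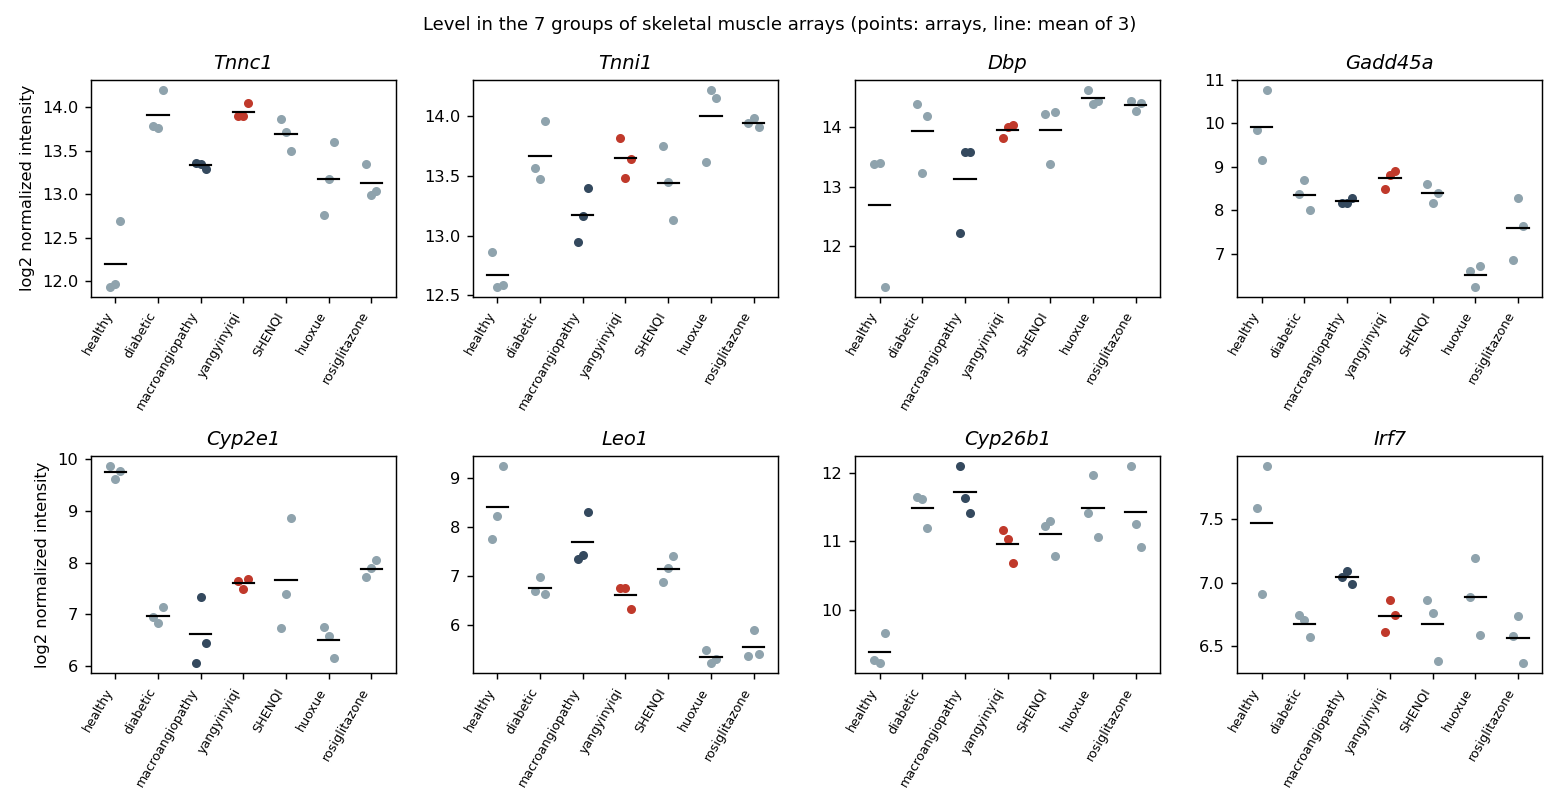
Levels of leading genes in skeletal muscle of all 7 groups, as log2 normalized intensity. Each point is 1 array of 3 per group, and the line is their mean. Tnnc1 on the yangyinyiqi arrays (13.89 to 14.05) lies inside the diabetic range and above all macroangiopathy arrays, and Cyp2e1 is highest in healthy muscle.

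The difference of the yangyinyiqi change between muscle and aorta was tested with an interaction term in 12 arrays. Of 15705 genes, 284 (1.81%) had an unadjusted P value below 0.05 and 0 passed adjustment in limma. Of the 517 genes called in muscle, 68 (13.2%) were below that threshold, which the choice of genes by their muscle change favours. In aorta 39 of the 517 (7.54%) had an unadjusted P value below 0.05, 28 of them in the same direction, against 3.91% of all genes. These aorta P values come from the same 12-array fit, whose spread pools both tissues. Genes chosen for a small muscle P value tend to have little muscle spread, which favours this count as well. Of the 30 leading genes 6 had an interaction P value below 0.05, namely Atp8a2, Klk1b26, Smox, Dkk2, Igfn1 and Scd3. Smox changed by 0.49 in muscle and -0.02 in aorta, and Scd3 by -0.76 and 0.49. The change of Tnnc1 was 2.07 log2 units higher in muscle than in aorta, a difference that was not below the threshold. Most of it was the aorta change of -1.45. The aorta levels of Tnnc1 ranged from 6.07 to 9.76 and were highest on macroangiopathy aorta 1 (9.76) and 2 (8.76). Myh6 and Tnnt2, genes of heart muscle, were highest on the same arrays, while Tnni1 and Myh1 did not share that order. The cause was not tested. Cyp2e1 was called higher in aorta as well, by 1.55, and Leo1 lower, at -0.59. The aorta levels of Leo1 were 6.94, 6.46 and 6.57 against 7.47, 7.27 and 6.98. Leo1 and Pitrm1 (9.22) were highest on macroangiopathy aorta 1, the array that was high in Ctsh, Gmnn, H4c4 and Rpp14.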

How the data were processed

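Total RNA of skeletal muscle and aorta from 3 mice in each of 7 groups was put by the authors on 42 Agilent arrays of 1 colour each. The deposited scanner files, read by the authors with Agilent Feature Extraction 10.7.3.1, give the intensity of each spot as the median over its pixels and that of its local background, together with a processed signal, and flags (other values of 0 or 1) for spots well above background and irregular spots. A further deposited table holds log2 values that the authors quantile normalized over 42 arrays.

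The median intensities were corrected with the normexp method (offset 0) of limma 3.58.1 in R 4.3.3, put on the log2 scale and quantile normalized over 42 arrays. Control spots were left out, irregular spots were set to missing, and spots of a probe and probes of a gene were averaged. Genes entered the test if 1 of their probes exceeded background clearly, by the scanner's flag, on each of the 3 arrays of either group. The 6 arrays were compared with lmFit and eBayes, two-sided, at an unadjusted P value below 0.05, as the study's methods state, and with Benjamini-Hochberg adjustment. The tissue difference was tested as an interaction in 12 arrays. The code was tested on simulated data. Genes were named by a rule: the 15 largest increases and decreases among called genes without overlap and with a stable direction in each fit that left out 1 array, called members of 47 gene lists or else those with the smallest P values, and Per1. Ctsh, Gmnn, H4c4 and Rpp14 were named after their values were seen, as were Krt5, Krt10, Ighm, Arntl, Myh7, Myl2, Tnnt1, Adipoq and Cidec. The members and lists were chosen with earlier results of these data known. Same-numbered arrays deviated together with correlations of 0.0069, -0.16 and 0.30, and the numbers were not taken to pair the mice. The correlations cannot decide this, since arrays also share slides, as both replicate 3 arrays do. The alternatives are other background corrections, scalings, filters, probes and sets of arrays, the authors' table, slide and replicate number as blocks, and arrays left out. Promoter sequences were read from the RefSeq reference table.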

Additional observations from a re-analysis of the deposited data

How the results depend on the processing

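The number of genes below 0.05 after adjustment was 0 in every alternative except slide as a fixed block, which gave 5, and the setting without yangyinyiqi 1 and macroangiopathy 1 and 2, which gave 13. The unadjusted count of 517 was 785 without a filter (386 higher, 399 lower), 155 in a fit of all 21 skeletal muscle arrays, 54 in a fit of all 42 arrays, 831 without yangyinyiqi 1 and macroangiopathy 2 and 910 with the adipocyte level as a covariate. It ranged from 310 to 815 with 1 array left out, the lowest without macroangiopathy 1 and the highest without macroangiopathy 3. The processed signal gave 494, 170 higher and 324 lower. With the replicate block 611 genes were called and 0 passed adjustment, where the numbers mark no known pairing. The 4 settings that leave out groups of arrays or add a marker level were chosen after seeing the data. The interaction count of 284 was 489 without a filter and 71 in a fit of 42 arrays. It ranged from 163 to 792 with 1 array left out: 163, 792 and 476 without macroangiopathy aorta 2, 1 and 3, and 578 without yangyinyiqi aorta 2. It was 0 after adjustment throughout. Among 68 genes followed over up to 24 alternatives, 1215 of 1628 values kept direction and side of the threshold, 373 lost the call, 31 gained it and 9 reversed. The reversed values were Per1 at -0.0596 with slide as a fixed block, -0.0043 without macroangiopathy 1 and -0.17 without yangyinyiqi 1 and macroangiopathy 1 and 2, a setting that also turned Oasl2 to 0.0238 and B2m to 0.0254. Me1 was 0.12 with the brightest probe, Myl2 -0.0073 with slide as a fixed block, and Ctsh 0.0427 and H4c4 0.26 without macroangiopathy 3. With 1 array left out Per1 ranged from -0.0043 to 0.44, Ctsh from -1.10 to 0.0427 and H4c4 from -0.87 to 0.26. The cause was not tested for the counts that moved. Leo1, Pitrm1 and Fam107a kept their calls under all 24 alternatives, and Cyp2e1 under all 23 in which it was tested. Tnnc1, Dkk2, Acsl3 and Grin2d kept theirs under 23 of 24. The alternatives reuse arrays on which these genes were chosen, so kept calls are no independent test.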
